A study of Mus musculus with 11 samples.

Results

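The data described here are the brain libraries of a single-cell RNA sequencing series on macrophages (macs) that lack the transcription factor ZEB2. All barcodes of 1 WT and 1 Zeb2KO library of microglia were taken, with no barcode left out and no clustering, and they made up 6598 of the 51712 cells in the 11 libraries of the series. WT cells (CRE-) came from Zeb2fl/fl mice and Zeb2KO cells (CRE+) from Fcgr1-crexZeb2fl/fl littermates, on a C57Bl/6 background, and the methods of the study give an age of 6 to 8 weeks and both sexes. The counts of these libraries do not show both sexes, as 4 Y-linked genes had 2 UMIs in WT and 0 in Zeb2KO cells. Both groups therefore carry the floxed allele and differ in Cre, which is expressed from the Fcgr1 locus and is also active in some B cells, T cells and conventional dendritic cells. Microglia had been sorted as live CD45int cells with F4/80 and CD64. How many brains went into each library was not given in the sources used here.

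The WT library held 3097 cells and 13030711 unique molecular identifiers (UMIs), with a median of 4096 UMIs and 1700 genes a cell. The Zeb2KO library held 3501 cells and 17730180 UMIs, with a median of 4855 UMIs and 1856 genes. The libraries shared 14 cell barcodes with each other and 14 to 41 with the libraries of other tissues. Because Zeb2KO cells held more UMIs, shares of cells and spread between cells were taken after each cell had been thinned to 2000 UMIs, which left 2817 WT and 3302 Zeb2KO cells (280 and 199 had fewer). Levels are UMIs summed over all cells of a library and scaled to CPM, counts per 1000000 UMIs of the library, and since the method counts 3′ ends, a gene's length does not enter its level. With 1 library a side there is no replicate and no test, so intervals cover counting error only and cannot tell the genotype from any other difference between these libraries.

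Microglia are the macs of the brain parenchyma. They settle there before birth, depend on CSF1R signalling and on TGF-β for their identity, and survey the tissue through receptors such as CX3CR1 and P2RY12. ZEB2 is a zinc-finger factor best known as a repressor that binds E-boxes and drives epithelial to mesenchymal transition, and in blood cells it acts in several myeloid and lymphoid lineages.

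The cells of both libraries carried the markers of microglia. Cst3, which encodes the protease inhibitor cystatin C, stood at 66066 CPM in WT and 59659 CPM in Zeb2KO cells. P2ry12, the ADP receptor of resting microglia, stood at 4343 and 3316 CPM, and Tmem119, a membrane protein used to tell microglia from other macs, at 2425 and 1864 CPM. Each of these genes was found in at least 93.5% of thinned cells of either library, and no log2 ratio exceeded 0.39 in size.

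Zeb2 itself, on chromosome 2 (44983632-45117395, GRCm38, minus strand), was counted more often in the Zeb2KO library. It had 477 CPM in WT and 1763 CPM in Zeb2KO cells, a ratio of 3.69 (3.59 to 3.79, exact 95% interval), and was seen in 56.8% (55.0 to 58.7) and 92.4% (91.4 to 93.3) of thinned cells. The recombined allele still makes a transcript with the original 3′ end, so the counts say nothing of whether the deletion took place. Zeb2os, an antisense gene within Zeb2, had 113 and 93.5 CPM, and whether the counting kept both strands apart is not given in the sources used here. The related factor Zeb1 rose from 25.9 to 69.9 CPM. The mesenchymal factors Snai1, Snai2, Snai3 and Twist1 had at most 2 UMIs in either library.

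In the comparison across all genes, 5921 genes reached 20 CPM in the higher library. The limit for a call was a log2 ratio (of CPM plus 1) of 1 or more in either direction, which is a 2-fold difference. By this rule 258 genes (4.36% of those considered) were higher and 240 (4.05%) lower in Zeb2KO microglia, 498 (8.41%) in all. The median log2 ratio was -0.09, and 78.3% of genes lay within 0.5 of 0. Of the 5921 genes, 64 had a log2 ratio of 3 or more and 34 one of -3 or less. The same rule between the 2 WT libraries of the liver, from Nr1h3fl/fl and Zeb2fl/fl mice, called 28 (0.501%) genes higher and 58 (1.04%) lower, 86 (1.54%) of 5592. That gives the size of differences between libraries with no Zeb2 deletion, in another tissue and between mice of different floxed alleles.

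**Figure D1:**
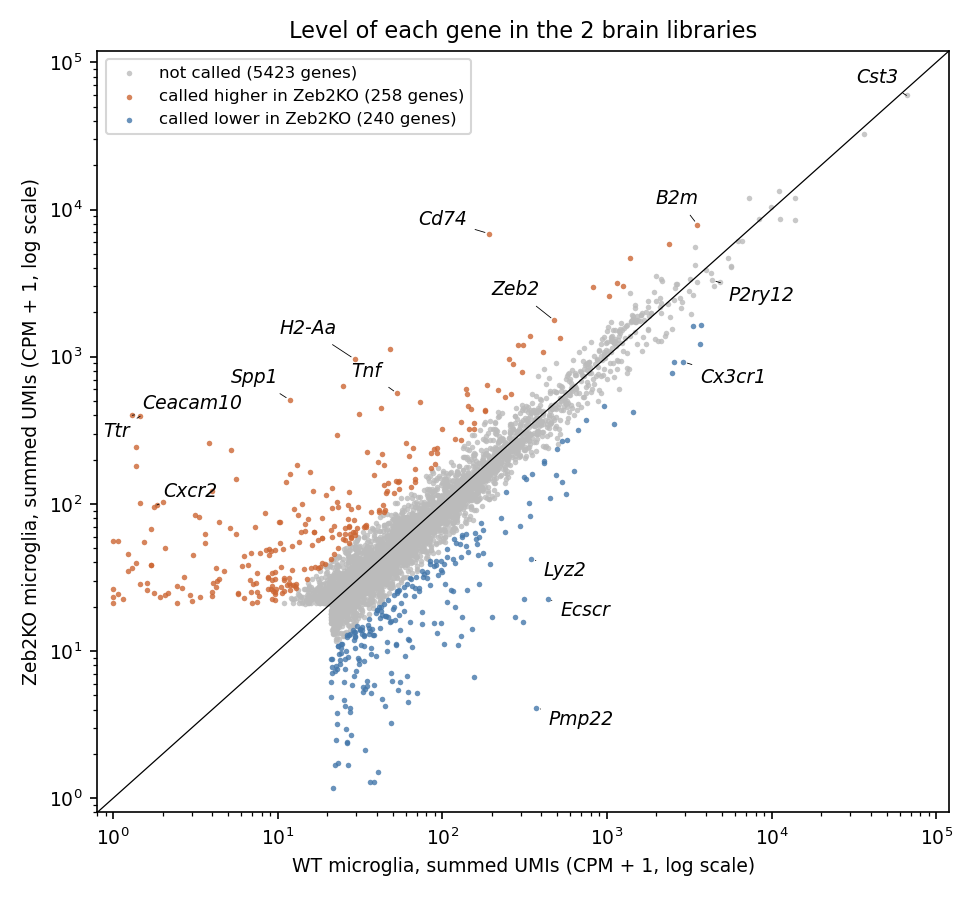
Level of each of the 5921 genes considered in WT (horizontal) and Zeb2KO microglia (vertical), as CPM plus 1 on log scales, with 1 point a gene and the line of equal levels. The 258 genes called higher lie above the line, with Cd74, Ceacam10 and Spp1 far from it, and the 240 called lower lie beneath it, with Pmp22 farthest, whereas Cst3 and P2ry12 lie close to it.

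The largest losses concerned genes that WT microglia expressed broadly. Pmp22, which encodes peripheral myelin protein 22, a small membrane protein with 4 spans, fell from 371 CPM (4838 UMIs) to 3.10 CPM (55 UMIs), a log2 ratio of -6.50. It was found in 49.0% of WT and 0.515% of Zeb2KO cells after thinning. Pdlim4, an adaptor protein of the actin cytoskeleton, fell from 154 to 5.70 CPM (log2 ratio -4.53). Sox4, a transcription factor of progenitor cells, fell from 308 to 14.8 CPM (-4.29). Ecscr, a membrane protein first described in endothelium that is also a known microglia gene, fell from 435 to 21.5 CPM (-4.28). Adgrg1, the adhesion receptor GPR56 that is restricted to yolk sac derived microglia among brain macs, fell from 274 to 16 CPM (-4.01). Further genes of this set were Hes1, a target of Notch signalling, Adamts1, a secreted protease, Ms4a6c, Lrba, a protein of vesicle traffic, Serpinf1 (pigment epithelium derived factor) and the tetraspanin Tspan4, with log2 ratios between -3.79 and -3.44. Their WT levels ran from 60.5 CPM (Ms4a6c) to 311 CPM (Adamts1), and none was above 21.7 CPM in Zeb2KO cells. Ms4a6c has close relatives (Ms4a6b and Ms4a6d) between which counting may be uncertain.

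The 12 genes with the highest ratios were at or near 0 in WT microglia. Ceacam10, an adhesion protein of the carcinoembryonic antigen family, had 4 UMIs (0.307 CPM) in WT and 7073 UMIs (399 CPM) in Zeb2KO cells, a ratio of 1300 (507 to 4771), and was seen in 0.106% and 39.5% of thinned cells. Fcrla, an Fc receptor-like protein of B cells, had 0.384 and 243 CPM. Hpse, the heparan sulphate cutting enzyme heparanase, had 0.384 and 181 CPM. Mrap2, an accessory protein of melanocortin receptors, had 0.460 and 101 CPM. Anxa2, which encodes the calcium-dependent membrane binding protein annexin A2, had 2.84 and 257 CPM. The chemokine receptor Cxcr2, known from neutrophils, had 0.844 and 97.3 CPM. Lax1, an adaptor of lymphocyte receptor signalling, had 1 and 972 UMIs, with a counting interval of the ratio from 128 to 28245. Nim1k, a kinase, had 0.998 and 102 CPM, and Cybb, the catalytic subunit of the phagocyte NADPH oxidase, 4.22 and 230 CPM. The antisense gene Gm15261 had 0.767 and 93.5 CPM, and Arhgap6, on the opposite strand of the same part of chromosome X, 0.691 and 66.9 CPM. Whether the counting kept the strands of this pair apart is not given in the sources used here, so reads of one may be counted for the other.

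Ttr was the exception among these genes. It encodes transthyretin, the main product of the choroid plexus epithelium, and had 6 UMIs in WT and 6974 in Zeb2KO cells. A single Zeb2KO barcode held 5921 of them (84.9%), and Ttr made up 25.8% of that barcode's 22921 UMIs, the most in the library. Without this barcode the level in Zeb2KO cells was 59.4 CPM and the log2 ratio 5.37 in place of 8.08. The other genes named were spread over many cells, with no more than 49.2% of their UMIs in the 5% of Zeb2KO cells that held most.

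**Figure D2:**
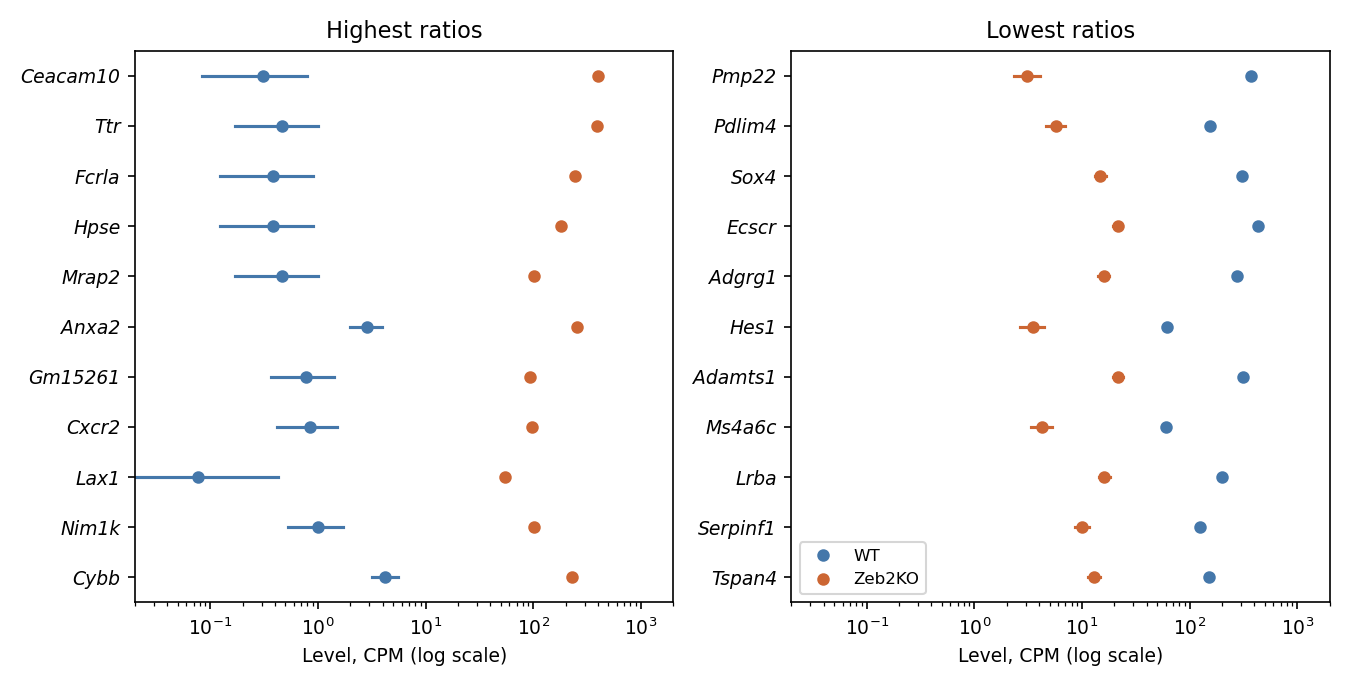
Levels (CPM, log scale) of 11 of the 12 genes with the highest and 11 of the 12 with the lowest ratio among genes of at least 50 CPM, in WT (blue) and Zeb2KO microglia (orange). Points are the summed level and lines the exact 95% Poisson interval. The genes were chosen for their extreme ratios, so it follows from the choice that the intervals of the libraries do not overlap.

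Since ZEB factors bind E-boxes, the letters CACCTG were searched on both strands (CAGGTG) in RefSeq promoters (GRCm38.p6) of 250 bases before and 50 after each start site. Promoters were matched by symbol for 191 of the 258 higher, 175 of the 240 lower and 4602 of the 5921 considered genes. At least 1 match was in a promoter of 46 higher genes (24.1%, exact 95% interval 18.2 to 30.8), of 37 lower genes (21.1%, 15.3 to 27.9) and of 873 genes considered (19.0%, 17.8 to 20.1), and of 22.6% of all genes in the table. The genes called had slightly more listed start sites a gene (1.37 and 1.34) than those considered (1.29), and of single windows 19.2%, 18.8% and 16.2% held a match. Of the genes with the highest ratios, Fcrla and Cxcr2 held a match, and of those with the lowest, Adgrg1, Lrba and Tspan4. The 4 windows printed are those of the 2 higher genes and of the 2 lower genes with 2 matches each, 5′ to 3′ on the gene's strand, with the matched letters in capitals. A match is a description of the letters and not a binding site. In Fcrla it began 69 bases and in Cxcr2 127 bases before the start, in Adgrg1 206 and 61 bases, and in Lrba 209 and 90 bases before it.
Fcrla chr1:170927534-170927833 (- strand): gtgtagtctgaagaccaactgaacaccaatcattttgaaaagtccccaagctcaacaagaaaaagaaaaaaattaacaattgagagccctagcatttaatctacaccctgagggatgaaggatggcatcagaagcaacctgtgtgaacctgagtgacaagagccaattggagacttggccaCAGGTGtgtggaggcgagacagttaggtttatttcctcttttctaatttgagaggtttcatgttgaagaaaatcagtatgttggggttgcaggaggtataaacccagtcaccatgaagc
Cxcr2 chr1:74153744-74154043 (+ strand): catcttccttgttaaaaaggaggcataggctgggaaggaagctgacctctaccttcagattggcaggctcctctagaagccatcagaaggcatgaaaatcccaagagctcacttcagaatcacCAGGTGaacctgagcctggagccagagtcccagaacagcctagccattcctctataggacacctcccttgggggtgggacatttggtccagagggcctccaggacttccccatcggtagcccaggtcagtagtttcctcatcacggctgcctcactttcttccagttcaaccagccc
Adgrg1 chr8:94976859-94977158 (+ strand): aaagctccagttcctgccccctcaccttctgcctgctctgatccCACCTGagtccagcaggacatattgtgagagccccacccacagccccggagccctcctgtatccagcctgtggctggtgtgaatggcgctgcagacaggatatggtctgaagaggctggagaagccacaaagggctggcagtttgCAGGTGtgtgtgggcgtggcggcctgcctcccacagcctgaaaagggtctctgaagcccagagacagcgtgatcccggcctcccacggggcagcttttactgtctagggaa
Lrba chr3:86224440-86224739 (+ strand): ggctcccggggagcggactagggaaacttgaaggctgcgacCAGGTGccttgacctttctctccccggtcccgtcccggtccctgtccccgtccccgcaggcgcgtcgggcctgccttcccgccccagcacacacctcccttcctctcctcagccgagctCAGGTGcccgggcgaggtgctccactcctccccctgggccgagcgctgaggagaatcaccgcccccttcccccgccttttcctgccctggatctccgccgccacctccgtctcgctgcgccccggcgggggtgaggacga

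Single cells were then profiled by the genes with the most extreme ratios. Summed over the 12 genes with the lowest ratios, the median WT cell held 4 UMIs and the median Zeb2KO cell 0, and 2.56% of WT against 81.8% of Zeb2KO cells held none. Summed over the 11 genes with the highest ratios other than Ttr, the median was 0 UMIs in WT and 3 in Zeb2KO cells, and 98.4% of WT against 6.51% of Zeb2KO cells held none. These genes were chosen for their ratios in the same libraries. The direction, and most of the cells at 0 in the library of the lower level, follow from that choice. Only the division among cells of the library that expresses a set adds to it. The lower set exceeded the higher set in 2741 of 2817 WT cells (97.3%) and in 130 of 3302 Zeb2KO cells (3.94%, 3.30 to 4.66), and the reverse held in 5 WT cells (0.177%) and 2963 Zeb2KO cells (89.7%). Of the Zeb2KO cells, 19 (0.575%, 0.347 to 0.897) held at least 3 UMIs of the lower set and none of the higher set, as 2213 WT cells (78.6%) did. These 19 cells had a mean of 1.95 Zeb2 UMIs a thinned cell, against 0.966 in all WT and 3.75 in all Zeb2KO cells, and 1.79 Cd74 UMIs against 0.312 and 12.8. Their P2ry12 mean was 8.84 UMIs, against 9.03 in WT and 6.97 in Zeb2KO cells. Their Siglecf mean of 0.842 UMIs was near that of all Zeb2KO cells (0.820, against 0.0554 in WT), and their B2m mean of 11 UMIs lay between 6.98 in WT and 15.3 in Zeb2KO cells.

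**Figure D3:**
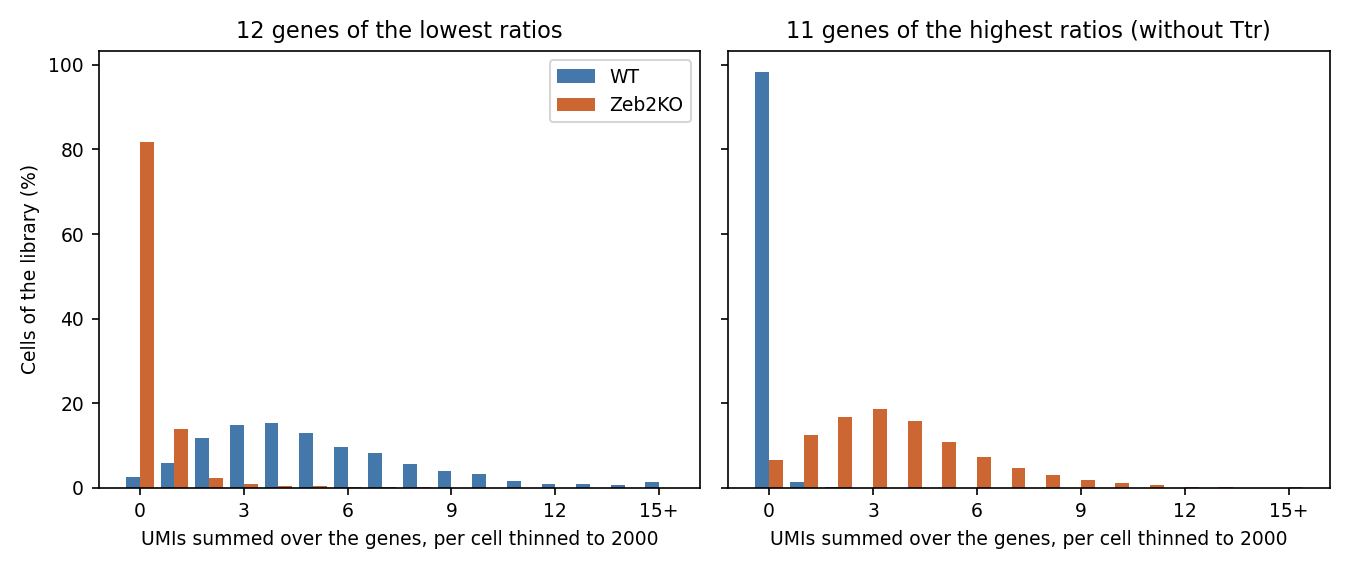
Share of cells (%) by the number of UMIs summed over the 12 genes with the lowest ratios (left) and the 11 with the highest ratios other than Ttr (right), in cells thinned to 2000 UMIs, with WT in blue and Zeb2KO in orange and 15+ for 15 or more. WT cells are spread around a median of 4 UMIs on the left and 98.4% of them lie at 0 on the right, while 81.8% of Zeb2KO cells lie at 0 on the left.

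Share of cells gave a second view of the same comparison. After thinning, 50 genes were found in at least 20 percentage points more Zeb2KO than WT cells (0.844% of the genes considered) and 34 in at least 20 points fewer (0.574%). The rise was largest for Cd74, from 11.7% to 95%, followed by H2-Ab1 from 3.90% to 57.1%, Lsp1, an F-actin binding protein of leukocytes, from 12.5% to 62.4%, and Siglecf, a sialic acid binding receptor known from alveolar macs and eosinophils, from 5.11% to 54.6%. H2-Aa, Cd52 (a small glycoprotein anchored in the lymphocyte surface), H2-Eb1 and Fcgr2b (the inhibitory Fcγ receptor) made up the rest of the first 8. The fall was largest for Ecscr, from 54.0% to 3.91%, and Pmp22, followed by Cd63, a tetraspanin of late endosomes, from 56.4% to 12.9%, and Ldhb, a lactate dehydrogenase subunit, from 67.2% to 27.3%. Fscn1, the actin-bundling protein fascin, fell from 56.7% to 16.7%, Adgrg1 from 42.1% to 3.12%, Crybb1, a crystallin found in microglia, from 55.8% to 22.2%, and Lyz2 (lysozyme) from 36.2% to 3.21%. For reference, Hbb-bs, a haemoglobin gene of red blood cells, had a UMI in 7.77% of WT and 5.54% of Zeb2KO thinned cells. A low share does not by itself tell a cell's own RNA from free RNA. Before thinning, Ttr, with 84.9% of its Zeb2KO UMIs in 1 barcode, had a UMI in 871 Zeb2KO and 6 WT barcodes. What free RNA contributed to the share of any gene, low or high, was not tested. The unthinned shares were 18.6% and 98.7% for Cd74, 10.7% and 81.6% for Siglecf, and 69.6% and 1.14% for Pmp22.

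**Figure D4:**
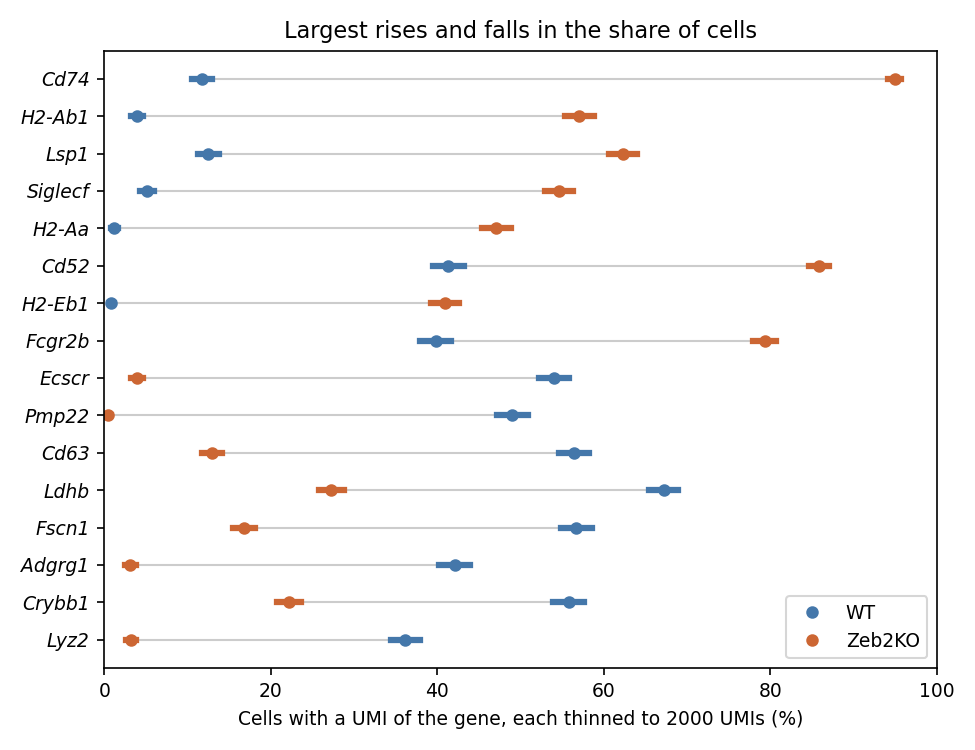
Share of cells (%) with at least 1 UMI of the 8 genes with the largest rise and the 8 with the largest fall, in WT (blue) and Zeb2KO microglia (orange), each cell thinned to 2000 UMIs; thick lines are exact 95% binomial intervals. Cd74 moves from 11.7% to 95% and Ecscr from 54.0% to 3.91%.

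Antigen presentation held the gene with the largest gain in CPM. Of 8 MHC class II genes considered, 4 rose, where 4.36% of all genes were higher, and none fell (median log2 ratio 2.72, against -0.09 over all genes). This median lies between the called members, at 4.54 or more, and the others, at 0.90 or less, and at a floor of 5 CPM it was 0.90. Cd74, the invariant chain that escorts class II molecules, rose from 191 to 6860 CPM, the largest gain in CPM of any gene. H2-Aa rose from 28.3 to 961 CPM, H2-Eb1 from 24.0 to 631 CPM and H2-Ab1 from 47.2 to 1122 CPM, and these encode the α and β chains. Without barcodes that held other immune cells' markers, the log2 ratio of H2-Aa was 6.67 in place of 5.04 and that of H2-Eb1 6.35 in place of 4.66, while H2-Ab1 went to 5.33 from 4.54 and Cd74 to 5.77 from 5.16. The peptide editors and their modulators were not called, with H2-DMa at 309 and 446 CPM, H2-DMb1 at 181 in both, H2-Oa at 82.8 and 154 and H2-Ob at 29.2 and 55.4 CPM. Ciita, the coactivator of class II genes, had 0 UMIs in WT and 37 in Zeb2KO cells (2.09 CPM), which is under the limit of 20 CPM. In WT cells, Cd74 sat in few cells, with a variance over mean (Fano factor, 1 for Poisson counts) of 32.3, and 3 barcodes with 100 or more UMIs held 33.6% of it. Chains were seen together in 8 WT cells (0.284%) that had a UMI of all 3 of H2-Aa, H2-Ab1 and H2-Eb1, with a mean of 44.9 Cd74 UMIs and 2.38 P2ry12 UMIs, against 0.167 and 9.08 in WT cells with none of the 3. In the Zeb2KO library the 3302 thinned cells divided into 27.9% with none, 26.5% with 1, 18.1% with 2 and 27.4% with all 3 chains, and the mean number of Cd74 UMIs went from 4.02 through 5.92 and 11.8 to 29.1. P2ry12 was present throughout, at 7.46 UMIs in Zeb2KO cells with no chain and 5.98 in those with all 3.

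MHC class I genes showed smaller shifts in the same direction. Of 14 considered, 6 rose and none fell, with a median of 0.80, where 4.36% of all genes were higher. H2-D1 rose from 823 to 2958 CPM, H2-K1 from 518 to 1344, and B2m, their light chain, from 3539 to 7911 CPM. H2-Q6 and H2-Q7 (log2 ratios 3.25 and 2.88) are near-identical copies whose counts may be split between them. The peptide transporter genes Tap1 and Tap2 and the immunoproteasome subunits Psmb8 and Psmb9 had log2 ratios of 0.91, 0.50, 0.40 and 0.68 and were not called. Among interferon-stimulated genes 8 of 15 rose and none fell (median 1.08), led by Ifi204 (9.29 to 73.7 CPM), Oasl2 (7.44 to 47.9), Ifit3 (11.3 to 50.4) and Ifi27l2a (37.4 to 156). Most of these were at low levels, and Isg15 was seen in 3.55% and 7.06% of thinned cells. Without barcodes that held 3 or more UMIs of other immune cells' markers, 5 of 13 rose (median 0.94), whereas 11 of 15 rose with TMM or DESeq2 scaling and 14 of 19 among cells low in dissociation-linked genes.

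Several inflammatory mediators rose in Zeb2KO microglia. Tnf rose from 52.1 to 563 CPM and from 5.22% to 38.7% of cells, and Il1b from 138 to 604 CPM. Il1a, Csf1 and Il1rn, the antagonist of the IL-1 receptor, rose too, while Tnfsf12 (TWEAK) fell from 33.8 to 5.25 CPM, so that 5 of 9 cytokines rose and 1 fell (median 1.47), where 4.36% of all genes were higher and 4.05% lower. Osm, Il18 and Tgfb1 were not called, with log2 ratios of 0.47, -0.02 and -0.04. Of 12 chemokine ligands 5 rose, namely Ccl5 (3.38 to 73.8 CPM), Ccl7 (15.3 to 122), Ccl2 (285 to 1195), Ccl3 (1388 to 4692) and Ccl4 (2397 to 5843), and Ccl9 fell from 335 to 100 CPM. Ccl3 and Ccl4 differed in breadth as well as level, being found in 45.5% and 53.2% of WT and 83.8% and 86.1% of Zeb2KO cells. Of 16 genes of NF-κB feedback and the inflammasome 6 rose, among them the inhibitors Nfkbia (1027 to 2581 CPM), Nfkbid (186 to 637) and Nfkbiz (181 to 431), and Cd14, a co-receptor for lipopolysaccharide, fell from 532 to 265 CPM, at the very limit of the call and not past it with TMM scaling. Brains had been digested with enzymes in a warm water bath before the sort, so immediate early and dissociation-linked genes were listed beside these. Of 23, 3 rose (Maff, Nr4a1 and Egr2), where 4.36% of all genes were higher, and none fell. The median was -0.11, and Fos and Jun had log2 ratios of -0.56 and -0.48. Over cells, this list took a median of 2.05% of UMIs in WT and 2.40% in Zeb2KO cells. Its summed level went the other way, with 32835 CPM in WT and 27237 CPM in Zeb2KO cells. Of 12 heat shock genes none rose and Hspb1 fell, which is near the 8.41% called over all genes. Among cells at or under the median share of the dissociation-linked list, the median of the chemokine list was 1.24 in place of 0.64, that of the interferon list 1.62 in place of 1.08 and that of the cytokine list 0.68 in place of 1.47. What dissociation contributed was not tested further.

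Homeostatic genes of microglia were lower in part. All 32 genes listed were considered, 8 fell and none rose (median -0.61), where 4.05% of all genes were lower, and 7 fell with TMM or DESeq2 scaling. Besides Ecscr and Adgrg1, Crybb1 fell from 536 to 141 CPM, the fractalkine receptor Cx3cr1 from 2912 to 921, Sparc, a matrix glycoprotein, from 3671 to 1223, the microglial Fc receptor-like gene Fcrls from 2567 to 926, Selplg, the ligand of P-selectin, from 3746 to 1629, and Bin1, a membrane-bending protein, from 958 to 464 CPM. Cx3cr1 was still found in 76.9% of Zeb2KO cells, with a median of 2 UMIs a cell against 6 in WT. Csf1r, the receptor on which microglia depend, went from 3222 to 1941 CPM, with a log2 ratio of -0.73 that was not called. The identity factor Sall1 had 160 and 109 CPM and was not called either. Trem2 (2847 and 2355), Mef2c (774 and 781) and Tgfbr1 (635 and 627) lay closer to WT. None of the 12 TGF-β pathway genes considered was called (median -0.03), among them Tgfb1, Tgfbr2, Smad7 and Skil, which for so few genes is near the 8.41% called overall.

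Of transcription factors of macs, 4 of 30 considered were called, against 8.41% of all genes. Bhlhe40 (1.46 to 26.7 CPM) and the orphan nuclear receptor Nr4a1 (140 to 559) rose, and Sox4 and Cebpa (666 to 315) fell, whereas with TMM scaling 4 rose and 1 fell. Spi1, which encodes PU.1, had 611 and 449 CPM, Irf8 766 and 641 and Runx1 156 and 141, all not called.

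Genes raised in disease-associated microglia split. Of 19 considered, 7 rose and 2 fell (median 0.32), against 4.36% and 4.05% of all genes. Spp1, which encodes osteopontin, rose from 10.8 to 508 CPM, Cst7 (cystatin F) from 12 to 184, Itgax (CD11c) from 5.06 to 37.0, Axl from 8.60 to 29.9 and the protease Ctsl from 1252 to 3028 CPM. Cd63 (562 to 116 CPM) and Lyz2 (347 to 41.1 CPM) fell. Apoe, at 2334 and 2295 CPM, Tyrobp, at 3188 and 3354, and Trem2 were not called, and Lpl lay just outside the limit at a log2 ratio of -0.99. Of Lyz2 in the Zeb2KO library 33.7% came from 1 barcode, and without it the level was 27.2 CPM. Without barcodes that held other immune cells' markers, the log2 ratio of Lyz2 was -3.74 in place of -3.05.

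Surface receptors changed in both directions, and each count is to be read against the 4.36% of all genes that were higher and the 4.05% that were lower. Siglecf rose from 30.2 to 409 CPM and Siglecg from 10.8 to 160, whereas Siglece fell from 82.7 to 39.9 CPM and Mag, the myelin-associated glycoprotein that is also a Siglec, from 32.8 to 1.13 CPM, out of 6 Siglecs considered, 1 of them lower with TMM scaling. Of 9 Fc receptors, Fcrla and Fcgr2b (267 to 887 CPM) rose and Fcgr1 (574 to 272) and Fcrls fell, of which 1 passed the limit with TMM scaling. The Cre cassette sits at the 3′ end of Fcgr1, where counting takes place, and its part in that value was not tested. Of 11 integrins Itgb7 (0.460 to 27.7 CPM), Itga4 (0.614 to 25) and Itgax rose and Itgav (66.5 to 22.6) fell, while Itgam, which encodes CD11b, had 285 and 224 CPM. Of 13 chemotactic receptors Ccr1 (42.1 to 218 CPM), Ccrl2 and C5ar2 rose and Cx3cr1 and Cmklr1 (98.5 to 33.4 CPM) fell. Cxcr2, with a log2 ratio of 5.74, is not counted in this list. Among cells low in dissociation-linked genes 1 of the 13 rose, and 2 rose among cells within 3 median absolute deviations of the library's median UMIs, genes and mitochondrial share or without other immune cells' markers. Complement C3 rose from 0.230 to 44.6 CPM, whereas C1qa, C1qb and C1qc had log2 ratios of 0.26, 0.07 and 0.05. None of 9 Toll-like receptor genes rose, and the co-receptor Cd14, also in this list, fell, which for 9 genes is near the share called overall.

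Of tetraspanins and related small membrane proteins 7 of 15 fell and none rose, with a median of -0.76, the lowest among the lists drawn in the plot of list members, where 4.05% of all genes were lower. With TMM or DESeq2 scaling 6 of them fell. Beside Pmp22, Tspan4 and Cd63 these were Tspan13 (165 to 27.6 CPM), Emp3, a relative of Pmp22 (64.8 to 26.5), Tspan3 (170 to 73.5) and Cd81 (3340 to 1624 CPM). Cd9, another abundant member, had 1395 and 1737 CPM and Cd37 493 and 906 CPM. Of 19 genes of cytoskeleton and matrix, 6 fell, namely Pdlim4, Adamts1, Tuba1a (341 to 81.6 CPM), Fscn1, Sparc and Tubb2a, and Lsp1 and Spp1 rose. Actb, the most familiar actin gene, had a log2 ratio of -0.22. Of S100 proteins and annexins 3 of 11 rose (median 0.68, with 4.36% of all genes higher), Anxa2 together with S100a10, its binding partner (14.7 to 163 CPM), and S100a11.

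Metabolic and lysosomal lists held 1 to 3 called genes each, against 8.41% of genes called overall. In glycolysis Ldhb (627 to 166 CPM) and Hk3 fell and none of 16 genes rose (median -0.29), with Ldha, the partner subunit of Ldhb, at 218 and 219 CPM. In lysosomal genes Ctsl rose, Ctsf (293 to 69.8 CPM) and Cd63 fell, and 23 of 26 were not called (median -0.17). The cathepsin Ctss had the second largest gain in CPM, from 7311 to 11998, at a log2 ratio of 0.71. Among the 5 largest losses in CPM were those of Cst3, the nuclear RNA Malat1 (36381 and 32443 CPM) and the protease Ctsd (11223 and 8626 CPM), none of which was called, and that of Sparc, which was. Abca1, which exports cholesterol, fell (90.9 to 37.5 CPM) and the other 7 genes of cholesterol and lipid handling were not called (median -0.30). Of 8 iron and haem genes Hmox1, which degrades haem, fell from 749 to 373 CPM (not past the limit with TMM scaling) and no other was called.

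Survival, cell death and cell cycle lists held from 0 to 5 called genes each, where 4.36% of all genes were higher and 4.05% lower. Pmaip1 (NOXA, a death-promoting BH3-only protein) rose from 41.2 to 450 CPM and from 5.86% to 41.1% of cells, and the anti-apoptotic Bcl2a1d, which has near-identical copies, from 20.3 to 92.1 CPM. Casp4 rose (67.3 to 139) and Bcl2l11 (BIM) fell (52.6 to 24.7, not past the limit with TMM scaling), while Bax, Bbc3, Bid and Bcl2l1 were not called (19 genes considered, median 0.14). Of 14 survival receptors and ligands 3 rose (Csf1, Axl and Csf2ra, the last from 92.4 to 221 CPM) and 2 fell (Cx3cr1 and Gas6, 138 to 61.0 CPM). Of 8 cyclin, CDK inhibitor and p53 target genes Ccnd1 (61.3 to 210 CPM) and Gadd45b rose and Cdkn1c (25.3 to 1.41 CPM) fell. Of 19 cell cycle genes 3 reached 20 CPM and none was called, and the list summed to 165 CPM in WT and 243 CPM in Zeb2KO cells. However, 1 WT barcode (0.0323%) and 37 Zeb2KO barcodes (1.06%) held 3 or more UMIs over 8 genes of dividing cells, such as Mki67 and Top2a.

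Epithelial genes, the classical targets of ZEB factors, were mostly at or near 0 in both libraries. Of 27 listed, 11 had no UMI in either library and 1 reached 20 CPM, Tjp3, a tight junction protein that rose from 0.230 to 34.1 CPM (3 and 605 UMIs). Cdh1, which encodes E-cadherin, had 0 and 0.564 CPM, and Cldn1 0 and 2.43 CPM. The study followed 6 genes as markers of ZEB2-deficient macs. It found Siglecf and Ms4a1 in its Kupffer cell data and Epcam and Cd101 in its alveolar mac data. In brain it then used genes of this set to identify deficient cells. Of the 6, Siglecf, Itgax and Cd101 (6.45 to 32.9 CPM) rose, Itgam was not called, and Epcam and Ms4a1 (0 and 68 UMIs) did not reach 20 CPM.

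**Figure D5:**
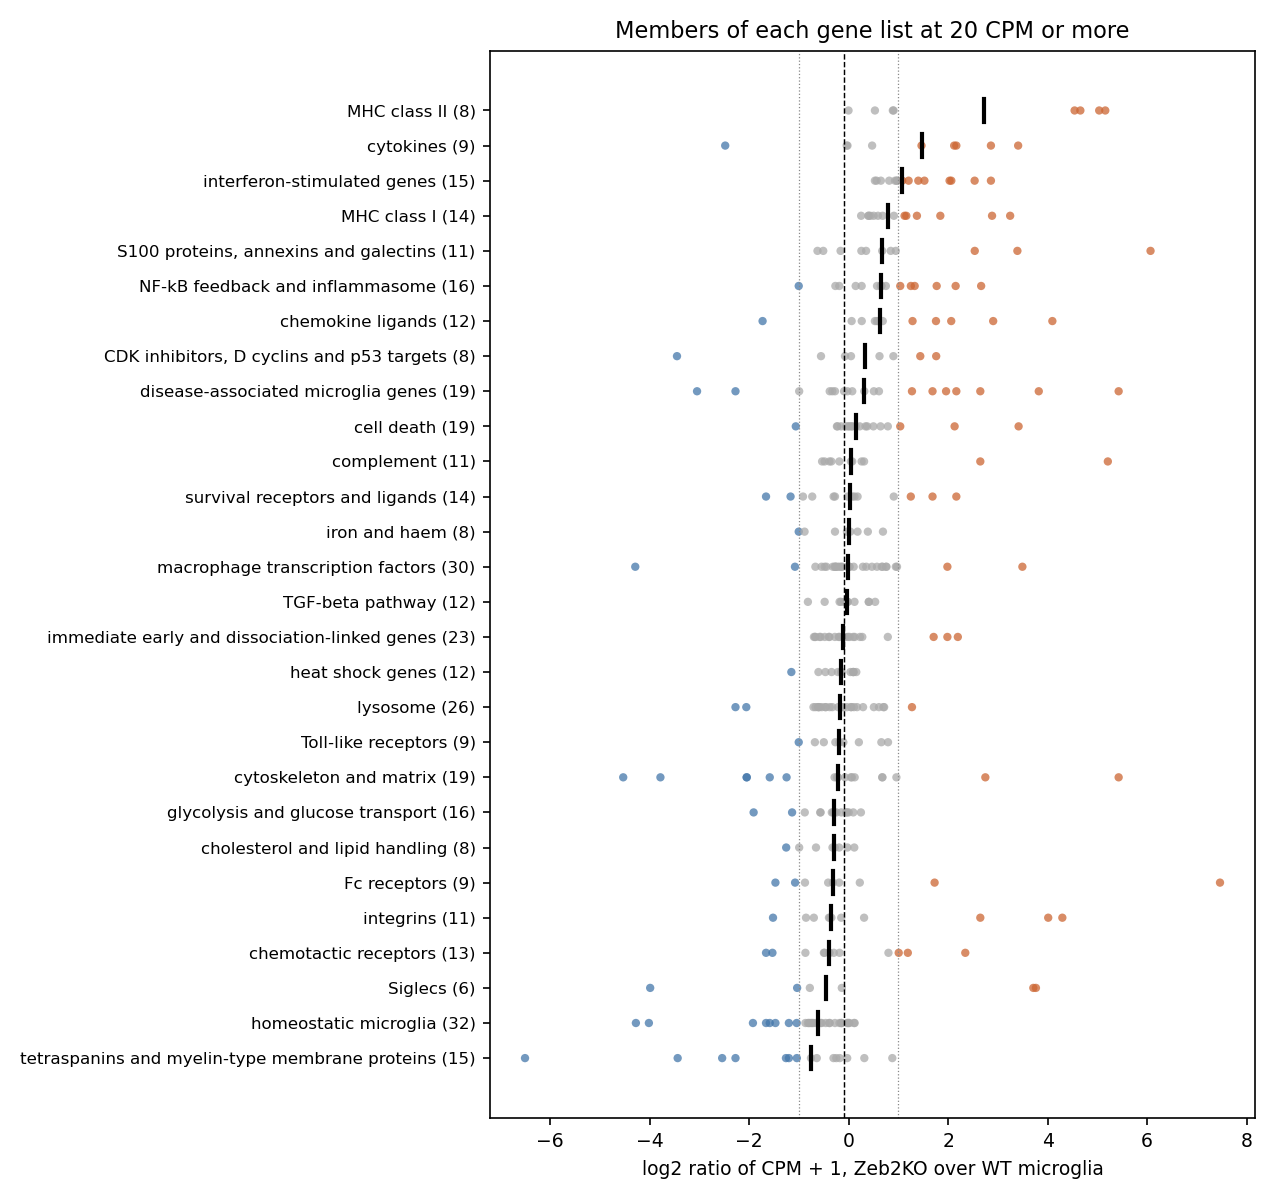
Log2 ratio (CPM plus 1, Zeb2KO over WT microglia) of each list member of at least 20 CPM, with 1 row a list and the number of members in brackets, for lists with at least 5 such members. The marker lists of other cell types, the haemoglobin genes and the lists with fewer members are not drawn. Orange points rose, blue points fell, grey points were not called, thick bars are list medians, the dashed line is the median of all genes (-0.09) and dotted lines mark the limits of -1 and 1. Of the lists drawn, MHC class II has the highest median (2.72) and the tetraspanin list the lowest (-0.76).

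Called genes ranged from broadly to sparsely detected. Among called genes of at least 50 CPM in Zeb2KO cells, the 5% of cells with most UMIs held 11.5% of B2m, 12.1% of Ctsl, 12.1% of Ly6e (an interferon-induced surface protein), 12.7% of H2-D1 and 13.4% of Cd81, where an even spread would give 5%. At the other end they held 100% of Ifit3, 96.0% of Ccl5, 94.2% of Ccl7, 92.2% of Dusp2 (a phosphatase of MAP kinases) and 83.1% of Isg15, each of which was found in no more than 7.06% of thinned cells. This share is at or near its upper limit for any gene seen in about 5% of cells, and it is lowest for abundant genes, so that it follows detection. Spp1 was in between, with 80.0% of its UMIs in these cells and a UMI in 18.6% of cells. Over 4273 genes with a mean of at least 0.05 UMIs a thinned cell in both libraries, the median Fano factor was 1.02 in WT and 1.02 in Zeb2KO cells, and 100 and 108 genes had a factor of at least 2, of which 91 were shared. The factor was at least 2 times higher in Zeb2KO cells for 4 genes, Lyz2 (7.05 and 27.4), Ccl12 (9.10 and 21.6), B2m (1.79 and 3.76) and Tnf (2.62 and 5.34). For Lyz2 a single Zeb2KO cell held 76 UMIs, at a mean of 0.0697 UMIs a thinned cell. The mean of Tnf rose from 0.0831 to 1.06 UMIs a thinned cell. The 5% of cells with most Tnf held 97.4% of it in WT and 43.4% in Zeb2KO cells. For B2m the mean rose from 6.98 to 15.3 UMIs and this share was 11.6% and 11.5%. The factor was not adjusted for a gene's mean. The Fano factor was at least 2 times higher in WT cells for 3, H2-Aa (20.3 and 6.17), Ifitm3 (5.89 and 2.72) and H2-Ab1 (11.6 and 5.58).

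Markers of other cell types were low in both libraries, and a few genes made up most of each immune list. Whether their UMIs came from microglia or from other cells was not tested. Markers of border-associated macs summed to 157 CPM in WT and 38.5 in Zeb2KO cells, of which Stab1 made up 140 and 25, with Cd209f at 0 and Mrc1 at 7.06 and 8.35 CPM. Markers of monocytes and neutrophils summed to 7.14 and 40.4 CPM, of which Plac8 made up 3.22 and 35.8, and 5 of 12 were at 0 in both. Lymphocyte markers summed to 71.3 and 29.2 CPM, mostly Cd79b, with Cd3e, Cd3d and Cd3g at 0. Dendritic cell markers summed to 13.8 and 173 CPM, of which Siglecg made up 10.8 and 160, with Cd209a at 0 and Flt3 at 0.844 and 3.55 CPM. Markers of neurons and astrocytes summed to at most 2.76 CPM. Oligodendrocyte markers summed to 110 and 93.9 CPM, with Mag lower and Mbp, myelin basic protein, higher (10.7 and 30.2 CPM) in Zeb2KO cells, and endothelial markers to 25.3 and 26.5 CPM. Leaving out barcodes with 3 or more UMIs of the 4 immune lists removed 10.4% of WT and 18.4% of Zeb2KO barcodes, and as Stab1, Cd79b, Siglecg and Plac8 were themselves called, this choice of cells is not independent of the comparison. It gave 252 higher and 246 lower genes, 245 and 236 of them among those called with all barcodes. Haemoglobin was lower in Zeb2KO cells (Hbb-bs 2479 and 774 CPM), with 98.4% and 96.6% of Hbb-bs UMIs in 13 and 4 barcodes of 100 or more. Xist, expressed from the inactive X chromosome of females, had 1790 and 1900 CPM. The median share of mitochondrial UMIs was 1.03% in WT and 1.66% in Zeb2KO cells, and what it contributed was not tested.

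The same genes were set beside the other Zeb2KO and WT pairs, which share no library with the brain and of which liver and lung used other Cre lines (Clec4f-cre and Itgax-cre). Of the 258 genes higher in Zeb2KO microglia, 42 were also called higher in Kupffer cells (16.3%, and 21.2% of the genes higher there, where 3.60% of genes were called higher), 39 in alveolar macs (15.1% and 15.5%, background 4.31%), 18 in splenic macs (6.98% and 15.7%, background 1.87%) and 15 in colonic macs (5.81% and 28.3%, background 1.01%). Of the 240 lower genes, 10 were also called lower in Kupffer cells (4.17% and 17.5%, background 1.04%), 24 in alveolar macs (10.0% and 5.66%, background 7.28%), 8 in splenic macs (3.33% and 16.3%, background 0.796%) and 6 in colonic macs (2.50% and 22.2%, background 0.512%). These backgrounds are shares of the genes considered in each tissue, whereas only some of the brain's genes were considered there. Of the higher genes 152 were considered in liver, 147 in lung, 162 in spleen and 153 in colon, and of the lower genes 130, 98, 126 and 147. Some genes were called in the opposite direction, namely 6 of the higher genes in alveolar and 2 in splenic macs, and 9 of the lower genes in Kupffer cells, 12 in alveolar and 8 in splenic macs. The 2 WT liver libraries, with no Zeb2 deletion, also shared called genes with the brain. That pair called 28 genes higher and 58 lower, and which library comes first is arbitrary. Of the brain's higher genes, 1 was called higher and 9 lower there, and of its lower genes 4 each way. How much of the overlaps with Zeb2KO pairs is of this kind was not tested. Only Bri3bp was called higher in all 5 tissues by this rule, and no gene lower. The study reports macs that kept a copy of the targeted gene in every organ except the brain, presumed so in spleen and colon. All barcodes of each library were summed here, so such cells are part of the other pairs. What they contributed to these overlaps was not tested. The study compared only the groups of cells it took as deficient, by another test, and reports a larger set of genes shared by every tissue. Of the genes with the highest ratios in brain, Ceacam10 had log2 ratios of 8.31 in lung and between -0.17 and 0.00 in colon, liver and spleen, and Cxcr2 5.56 in lung, 2.19 in spleen, 1.39 in colon and 0.12 in liver. Mrap2 had log2 ratios between -0.03 and 0.00 in the other 4 tissues. Whether these differences between tissues exceed the spread between mice was not tested, as each pair has 1 library a side.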

How the data were processed

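UMI counts were deposited by the authors as 1 table a library, with genes in rows and cell barcodes in columns. According to the study's methods, libraries were made with the 10x Genomics 3′ kit, the brain libraries were sequenced on a HiSeq, and reads were processed with Cell Ranger and mapped with STAR to mm10. CRE- and CRE+ libraries were aggregated with Cell Ranger, a step that can equalise read depth between libraries, and whether the deposited counts precede it is not given in the sources used here. All values were whole numbers, with 27998 genes in the same order in the 11 tables, and the number of barcodes in each equalled the number of cells in its label. The members (all barcodes of both brain libraries) and the gene lists were chosen with earlier results of these data known, and no list is independent support for its direction.

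UMIs were summed over barcodes and divided by the library total (CPM). Log2 ratios were taken of CPM plus 1. A gene was considered at 20 CPM or more in the higher library and called at a log2 ratio of 1 or more in size. With 13030711 and 17730180 UMIs, the exact Poisson 95% interval of a gene at 20 CPM had a half-width of 12.3% of its value in WT. Intervals cover counting error only. Intervals of ratios and shares were exact (binomial, Clopper-Pearson), and a count of 0 was read as allowing up to 3. Cells were thinned without replacement to 2000 UMIs (seed 1). No doublet caller was run, and no cell was left out of summed levels. Genes named were Zeb2, the 3 markers of microglia, the 12 highest and 12 lowest ratios among genes of at least 50 CPM (without mitochondrial, ribosomal, haemoglobin, immunoglobulin and sex-linked genes), the 5 largest gains and losses in CPM, the 8 largest rises and falls in thinned share, the 5 most and least concentrated called genes, and members of the 42 lists, with 1 further list for the 3 markers. Arhgap6, Bri3bp and the extremes of the Fano factor were chosen after their values had been seen. A few genes that this rule names are not reported here. Coordinates are those of GENCODE M21 (GRCm38), matched by symbol for 26604 genes. Python 3.11.15, numpy 2.4.6, scipy 1.17.1 and, for scaling factors only, edgeR 4.0.16 and DESeq2 1.42.0 in R 4.3.3 were used. The call rule, intervals and thinning were tested on simulated counts. Alternatives concerned the cells used, scaling, weight of cells, pseudocount, floor, threshold and thinning.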

Additional observations from a re-analysis of the deposited data

Results flagged for a closer look

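With 1 library a group, no sample can be compared with others of its group. Among the named genes, 3 were called in one direction in brain and in the other direction in another tissue, and in each case the difference was not tested. Sparc had a log2 ratio of -1.58 in microglia and 1.12 in Kupffer cells, where it stood at 49.0 CPM in WT and 108 CPM in Zeb2KO. Cd63 had a log2 ratio of -2.27 in microglia and 4.51 in alveolar macs, at 54.3 CPM in WT and 1264 CPM in Zeb2KO. Dusp2 had a log2 ratio of 1.27 in microglia and -1.32 in splenic macs, at 320 CPM in WT and 128 CPM in Zeb2KO.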

How the results depend on the processing

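Direction and calls were compared over all alternatives run. Of 684 recomputed log2 ratios of 57 named genes, 682 stayed on their side of the limit, none reversed, and Cd81 passed out of it with TMM (-0.95) and DESeq2 scaling (-0.97). Many of these genes were chosen for extreme ratios, shares or changes in CPM, so that staying past the limit follows in part from the choice. Genes nearer the limit, such as Cd14, Hmox1 and Bcl2l11, are not among the 57 and were not past it with TMM scaling. Counts of calls (498, of which 258 were higher and 240 lower) stayed within 1.5 times under every choice of cells, scaling, weight, pseudocount and thinning before summing (428 to 518 in all). The near-even split between directions depended on scaling, with 295 higher and 207 lower genes with TMM and 293 and 216 with DESeq2 size factors. With TMM, 465 of the calls were among the 498. A floor of 5 CPM gave 919 calls (474 higher, 445 lower), a floor of 50 CPM 285 (158 and 127) and a threshold of 1.5 gave 295 (165 and 130), as fewer or more genes could pass. TMM scaling moved the median of all genes from -0.09 to 0.00. The log2 ratio of Zeb2 (1.88) left its counting interval under TMM (1.97), DESeq2 size factors (1.95), the mean of per-cell CPM (1.94) and thinning (1.95). Genes whose share differed by 20 points (84, of which 50 higher and 34 lower) depended on depth, with 45 (31 and 14) at 1000 UMIs, 52 lower at 3000 UMIs, and 163 with 120 higher without thinning. Genes with a Fano factor of at least 2 were 57 in WT and 61 in Zeb2KO at 1000 UMIs. Of 224 list medians, 215 moved by less than 0.37, the SD of list medians between the 2 WT liver libraries. Among cells low in dissociation-linked genes the others were interferon-stimulated genes (1.62), cytokines (0.68), chemokine ligands (1.24), immediate early genes (0.30) and heat shock genes (0.26). With TMM the cytokine median was 1.85, and at a floor of 5 CPM it was 0.47 and that of MHC class II 0.90. The CDK inhibitor list had 1.44 at a floor of 50 CPM. For the settings on cells and scaling the cause was not tested. Without the Ttr-rich barcode 500 genes were called, and without barcodes rich in Hbb-bs 495, both chosen after seeing the data. No paired analysis was possible because each group had 1 library.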
